A study of Rattus norvegicus with 47 samples.

Results

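The 3 peroxisome proliferator-activated receptors, encoded by Pparg, Ppara and Ppard, were followed in the prefrontal cortex of newborn rats whose mothers were exposed to flame retardants during gestation. They were taken by Ensembl rat ID (ENSRNOG00000008839 for Pparg, ENSRNOG00000021463 for Ppara, ENSRNOG00000000503 for Ppard), which gave 3 of the 32883 IDs in the count table, and all 3 passed the filter on low counts. The IDs were paired with these symbols in choosing the genes, since the count table holds no symbols. The receptors are proposed targets of the chemicals, and their transcripts were not chosen by their values.

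Poly(A) RNA from prefrontal cortex collected on postnatal day 1 was sequenced in 47 libraries. The libraries fall into 4 treatments of the dams, given daily during gestation: Control, which the labels do not describe further, 1000 µg of the brominated components EH-TBB and BEH-TEBP (BFR), 1000 µg of the organophosphate components, which are triphenyl phosphate and isopropylated triphenyl phosphate (OPFR), or 2000 µg of FM550, the commercial FireMaster mixture that holds both kinds. Every treatment had 6 female and 6 male libraries, except OPFR with 5 females and 6 males. Separate litters are not named in the labels, so the p-values measure only the spread between these samples. All exposures were compared with the same 12 controls. The dose of FM550 was not that of BFR or OPFR, so the values of FM550 are set beside theirs at unequal doses.

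The receptors are nuclear receptors that bind fatty acids and their derivatives, pair with a retinoid X receptor and act on genes of lipid and energy metabolism. PPARγ, the product of Pparg, is best known as the driver of fat cell differentiation and in brain is studied for its part in inflammation. PPARα, from Ppara, controls fatty acid oxidation, above all in liver. PPARδ, from Ppard, is expressed in many tissues, the brain among them. Triphenyl phosphate and other components of the mixture have been reported to act on PPARγ in cell-based assays. A transcript count measures neither the receptor protein nor its activity.

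Promoter windows of 300 bases around an annotated start are shown because the count of a gene sums all its transcripts and cannot separate their starts. RefSeq (GRCr8) lists such windows for Pparg and Ppara. Pparg has windows at 2 starts, chr4:150096808-150097107 and chr4:150154522-150154821, and Ppara has 1 at chr7:118712357-118712656, each on the plus strand. They are printed from 5′ to 3′ with every CG in capitals.
Pparg, first start: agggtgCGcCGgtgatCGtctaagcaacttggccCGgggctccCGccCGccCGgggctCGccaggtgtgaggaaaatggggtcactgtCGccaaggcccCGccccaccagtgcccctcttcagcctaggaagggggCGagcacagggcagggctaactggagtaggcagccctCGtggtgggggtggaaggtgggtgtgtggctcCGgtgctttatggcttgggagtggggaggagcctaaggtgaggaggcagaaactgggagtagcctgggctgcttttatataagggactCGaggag
Pparg, second start: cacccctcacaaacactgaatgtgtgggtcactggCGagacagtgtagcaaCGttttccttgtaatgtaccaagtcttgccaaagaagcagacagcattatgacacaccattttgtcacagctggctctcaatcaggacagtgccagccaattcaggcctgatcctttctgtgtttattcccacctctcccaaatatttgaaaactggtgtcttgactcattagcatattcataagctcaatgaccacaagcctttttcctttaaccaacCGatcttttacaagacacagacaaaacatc
Ppara: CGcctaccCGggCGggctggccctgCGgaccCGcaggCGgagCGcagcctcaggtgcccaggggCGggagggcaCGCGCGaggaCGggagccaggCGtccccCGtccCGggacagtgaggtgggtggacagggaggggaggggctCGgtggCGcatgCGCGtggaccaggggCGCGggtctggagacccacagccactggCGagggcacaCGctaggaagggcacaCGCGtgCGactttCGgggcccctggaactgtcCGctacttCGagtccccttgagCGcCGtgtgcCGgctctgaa
The first Pparg window held 14 CG and was 64.7% G or C, and 66.5% of the 33469 promoter windows in the table held fewer CG. The second held 3 CG at 43.7% G or C, with 22.3% of windows holding fewer. The Ppara window held 32 CG at 73.7% G or C, with 91.6% of windows holding fewer. The 2 starts of Pparg thus differ widely in CG content. The counts say nothing of which start was used in these cortices.

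Levels are given as CPM, the read count of a gene scaled to a common library total after normalisation. Library totals ranged from 41.1 to 73.4 M counted reads. The 12 controls do not form 1 set: the 7 whose titles are numbered 1 to 7 (Control males 1 to 5 and females 1 and 2) stood apart from those numbered 8 to 12 (male 6 and females 3 to 6), with 15% of 17193 tested genes called between them. The labels name no batch, and the split was taken from earlier results of these data. Their totals overlapped, reaching 66.4 M in controls 1 to 7 and 62.0 M in controls 8 to 12, as did their normalisation factors (0.965 to 1.01 and 0.966 to 1.02). Among males, 1 control lies outside the 7. OPFR females 4 and 5 also stood apart in earlier results of these data, and the values against control are also given with controls 1 to 7 set apart. Markers of cortical cell types and the partners, coregulators and target genes of the receptors could not be examined, because 0 of the 32883 IDs matched the reference gene table used here.

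The precision differed between the receptors. Pparg had 24 to 128 reads per library (median 50), Ppara 44 to 155 (median 83) and Ppard 746 to 1692 (median 1204). Within groups the coefficient of variation of CPM was 36.5% for Pparg, of which counting alone would give 14.1%. For Ppara it was 20.8%, with 11.2% from counting, and for Ppard 11.2%, with 2.92%. Pparg was thus the most variable of the 3 beyond counting: its biological coefficient of variation of 0.332 exceeded that of 87.7% of tested genes, against 68.3% for Ppara (0.188) and 38.7% for Ppard (0.110). The highest library was 5.13-fold above the lowest for Pparg, 2.56-fold for Ppara and 1.54-fold for Ppard. Levels were not ranked between the genes, since transcript lengths were not used here.

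**Figure D1:**
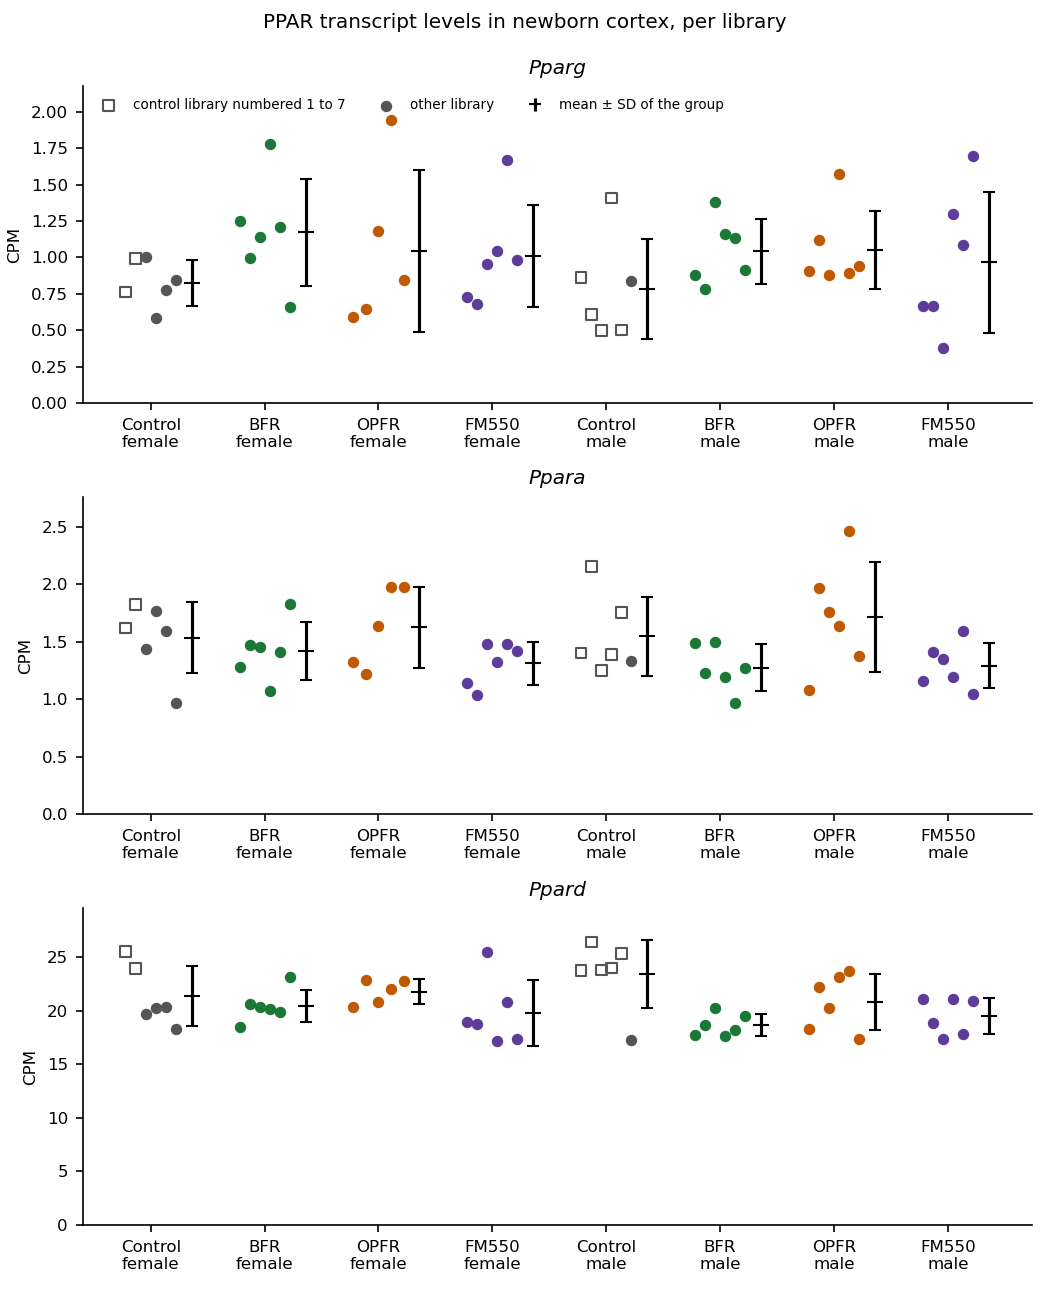
CPM of Pparg, Ppara and Ppard (vertical axes, linear) in each library by treatment and sex, with controls 1 to 7 marked apart from controls 8 to 12. Bars are group means with SD. Ppard shows the split of the controls, with controls 1 to 7 at 23.8 to 26.4 CPM and controls 8 to 12 at 17.3 to 20.4 CPM, while Pparg and Ppara overlap between both sets. How many other genes separate the controls this way was not counted.

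Pparg was detected in every library at low levels. Female controls 1 to 7 gave 0.763 and 0.992 CPM, and female controls 8 to 12 gave 1.00, 0.583, 0.773 and 0.846 CPM. Male controls 1 to 7 gave 0.863, 0.608, 0.500, 1.41 and 0.501 CPM, and the male control outside them gave 0.838 CPM. The 2 sets of controls overlapped, with means of 0.805 ± 0.324 (SD, n = 7) and 0.808 ± 0.151 CPM (SD, n = 5).

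Exposed libraries of either sex had higher mean Pparg than controls, and the ranges overlapped throughout. BFR females ran from 0.656 through a median of 1.17 to 1.78 CPM, with a mean of 1.17 ± 0.367 against 0.826 ± 0.157 in control females (SD, n = 6 each). Of the 6 BFR females, 4 lay above the highest control female. BFR males ran from 0.782 through 1.02 to 1.38 CPM, with a mean of 1.04 ± 0.223 against 0.786 ± 0.344 in control males (SD, n = 6 each), and none lay above the highest control male.

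Single libraries set the top of the Pparg range in each exposure. In BFR females, female 4 stood at 1.78 CPM, where the others averaged 1.05 CPM. OPFR females gave 0.593, 0.646, 1.18, 1.94 and 0.844 CPM, a mean of 1.04 ± 0.555 (SD, n = 5). The 1.94 CPM of OPFR female 4 was the highest Pparg level of all 47 libraries. OPFR males ran from 0.879 through 0.924 to 1.57 CPM (mean 1.05 ± 0.270, SD, n = 6). FM550 females ran from 0.681 through 0.967 to 1.67 CPM (mean 1.01 ± 0.353, SD, n = 6). FM550 males had the widest span of the male groups, from 0.379 through 0.877 to 1.70 CPM (mean 0.966 ± 0.487, SD, n = 6), and held the lowest Pparg level of all libraries.

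None of these Pparg differences passed the test. Averaged over the sexes, edgeR's quasi-likelihood test gave a log2 fold change of 0.46 ± 0.21 (SE) for BFR against control, with an unadjusted p of 0.0331 and a Benjamini-Hochberg adjusted p of 0.141. The fold was 1.37, with a 95% interval from 1.03 to 1.83. For OPFR the log2 fold change was 0.38 ± 0.21 (edgeR, adjusted p = 0.206) and for FM550 0.29 ± 0.21 (edgeR, adjusted p = 0.441). The BFR estimate was 0.48 ± 0.30 with a term for controls 1 to 7 in the model and 0.44 ± 0.33 with them left out (edgeR, unadjusted p of 0.114 and 0.195). limma voom called it, at 0.59 (adjusted p = 0.0243), and DESeq2 did not (adjusted p = 0.114).

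By sex, the log2 fold changes of Pparg in females came to 0.50 ± 0.29 in BFR, 0.34 ± 0.31 in OPFR and 0.29 ± 0.29 in FM550, with edgeR adjusted p of 0.650, 0.560 and 0.999. In males they were 0.41 ± 0.29, 0.42 ± 0.29 and 0.29 ± 0.29, with edgeR adjusted p of 0.414, 0.375 and 0.580. All 6 estimates were above 0 with every library in the fit, and they share controls within each sex. Most moved with 1 library. Without BFR female 4 the BFR value was 0.35 in females and 0.38 with both sexes averaged. The BFR value in males was 0.31 without Control male 5. Without OPFR female 4 the OPFR value was -0.015 in females and 0.20 with both sexes averaged. Without FM550 male 6 the FM550 value was 0.059 in males and 0.17 with both sexes averaged, and without FM550 female 5 it was 0.087 in females. Without OPFR male 4 the OPFR value in males was 0.26. Without Control male 4, the highest control at 1.41 CPM, the male values were 0.65 in BFR, 0.67 in OPFR and 0.54 in FM550.

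Setting controls 1 to 7 apart with a term left the Pparg values close to those of the pooled fit: 0.52, 0.35 and 0.30 in females and 0.44, 0.45 and 0.32 in males for BFR, OPFR and FM550. With those controls left out, the male values were 0.32, 0.32 and 0.20, against 1 control male. The intervals of the pooled fit were wide, the one for BFR females reaching from a fold of 0.941 to 2.13.

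No Pparg difference between exposures passed the test. Averaged over the sexes, the log2 difference was -0.08 ± 0.21 for OPFR against BFR, -0.16 ± 0.20 for FM550 against BFR and -0.09 ± 0.21 for FM550 against OPFR (edgeR adjusted p of 0.872, 0.884 and 0.851). The 95% interval of the matched-dose pair, OPFR against BFR, ran from a fold of 0.709 to 1.27, so differences within that range remain compatible with the data.

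Ppara, the fatty acid oxidation receptor, differed most between OPFR and the other exposures, and no difference passed the test. Female controls 1 to 7 gave 1.62 and 1.83 CPM, and the female controls outside them gave 1.44, 1.77, 1.59 and 0.967 CPM. Male controls 1 to 7 gave 1.40, 2.15, 1.25, 1.39 and 1.75 CPM, and the remaining male control gave 1.33 CPM. Both sets of controls overlapped, with means of 1.63 ± 0.311 (SD, n = 7) and 1.42 ± 0.303 CPM (SD, n = 5).

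BFR and FM550 libraries had lower mean Ppara than controls. BFR females ran from 1.07 through 1.43 to 1.83 CPM (mean 1.42 ± 0.250, SD, n = 6) and BFR males from 0.963 through 1.25 to 1.50 CPM (mean 1.27 ± 0.202, SD, n = 6). FM550 females ran from 1.04 through 1.37 to 1.48 CPM (mean 1.31 ± 0.187, SD, n = 6) and FM550 males from 1.04 through 1.27 to 1.59 CPM (mean 1.29 ± 0.198, SD, n = 6). In both exposures 3 of 6 males lay below the lowest control male, and no female lay below the lowest control female.

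OPFR libraries held the high values of Ppara. OPFR females gave 1.33, 1.22, 1.64, 1.97 and 1.97 CPM (mean 1.63 ± 0.354, SD, n = 5), the last pair being females 4 and 5. OPFR males ran from 1.08 through 1.70 to 2.46 CPM (mean 1.71 ± 0.480, SD, n = 6). Of the OPFR libraries, 2 of 5 females and 1 of 6 males lay above the highest control of their sex, and 1 male lay below the lowest. The highest Ppara level of all libraries was that of an OPFR male. The OPFR libraries numbered 31 to 35 in their titles averaged 1.89 ± 0.409 CPM (SD, n = 5) and those numbered 25 to 30 averaged 1.50 ± 0.344 CPM (SD, n = 6).

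No Ppara difference from controls passed the test. The log2 fold changes averaged over the sexes came to -0.20 ± 0.12 in BFR, 0.12 ± 0.12 in OPFR and -0.24 ± 0.12 in FM550, with edgeR adjusted p of 0.296, 0.539 and 0.231. In males the values were -0.28 ± 0.17, 0.15 ± 0.17 and -0.26 ± 0.17 (edgeR adjusted p of 0.320, 0.621 and 0.360). In females they were -0.11 ± 0.17, 0.08 ± 0.18 and -0.23 ± 0.17 (edgeR adjusted p of 0.875, 0.831 and 0.999). All 9 values use the same pooled controls, and most moved when controls 1 to 7 were set apart. With a term for those controls, the both-sex values were -0.043 ± 0.17 in BFR, 0.27 ± 0.17 in OPFR and -0.089 ± 0.17 in FM550. The male values were then -0.064 ± 0.24, 0.37 ± 0.24 and -0.043 ± 0.24, and the female values -0.021 ± 0.18, 0.17 ± 0.19 and -0.14 ± 0.18. BFR and FM550 thus lay closer to the controls in that fit and OPFR farther above them, and edgeR called none. With controls 1 to 7 left out, the both-sex values were -0.038 ± 0.19, 0.27 ± 0.19 and -0.091 ± 0.19.

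Single libraries also moved the Ppara differences from controls. Without Control male 2, the highest male control at 2.15 CPM, the male values were -0.16 in BFR, 0.27 in OPFR and -0.14 in FM550. Without OPFR male 5, the highest of all libraries, the OPFR value was 0.0081 in males and 0.049 with both sexes averaged. In females, the OPFR value was -0.013 without Control female 6, and the BFR value ran from -0.21 without Control female 6 to -0.043 without BFR female 4.

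Comparing exposures directly avoids the controls. BFR and OPFR were given at the same dose and differ in the chemical class of the components, brominated esters against triaryl phosphates. Each exposure also filled its own run of title numbers: 13 to 24 for BFR, 25 to 35 for OPFR and 36 to 47 for FM550. A difference between exposures therefore cannot be told apart from a difference between these runs. Averaged over the sexes, Ppara in OPFR was 1.24-fold that in BFR (95% interval 1.05 to 1.48), a log2 difference of 0.31 ± 0.12 with an unadjusted p of 0.0149 and an edgeR adjusted p of 0.127. FM550 against OPFR, at unequal doses, gave -0.36 ± 0.12, with an unadjusted p of 0.00573 and an edgeR adjusted p of 0.149. FM550 against BFR gave -0.05 ± 0.12 (edgeR adjusted p = 0.957), with a 95% interval from a fold of 0.817 to 1.15. None passed after adjustment over all genes.

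Both Ppara differences that involve OPFR were smaller without OPFR females 4 and 5 or without the OPFR libraries numbered 31 to 35. Each of these sets averaged higher Ppara than the rest of OPFR, so smaller differences were bound to follow. Without OPFR females 4 and 5 the log2 difference was 0.20 for OPFR against BFR and -0.25 for FM550 against OPFR. Without the OPFR libraries numbered 31 to 35 these were 0.14 and -0.19. In males, where females 4 and 5 have no part, OPFR against BFR gave 0.43 ± 0.17 (edgeR adjusted p = 0.361) and FM550 against OPFR -0.41 ± 0.17 (edgeR adjusted p = 0.829). OPFR males 4 to 6 are, however, among the libraries numbered 31 to 35. Without OPFR male 5 alone, these male values were 0.29 and -0.28. In females the values were 0.20 ± 0.18 (adjusted p = 0.603) and -0.31 ± 0.18 (adjusted p = 0.441) by edgeR.

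**Figure D2:**
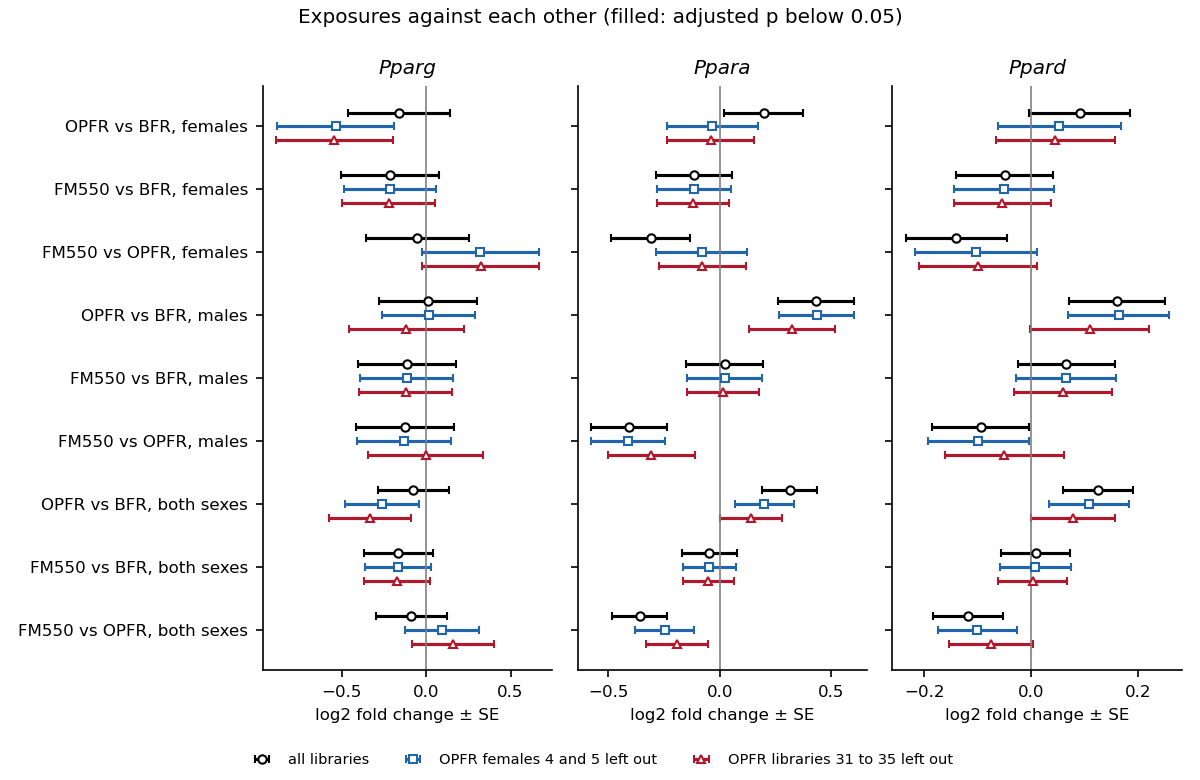
Log2 differences between exposures (horizontal axis, points with bars of ± SE) for Pparg, Ppara and Ppard, in females, males and both sexes averaged. With all libraries and both sexes averaged, Ppara was at 0.31 for OPFR against BFR and -0.36 for FM550 against OPFR. Their 95% intervals, which are not drawn, lie to 1 side of 0, and neither passed after adjustment over all genes.

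Ppard, the receptor with the most reads, was lower in exposed males than in the pooled male controls, and its level followed the split of the controls. Male controls 1 to 7 gave 23.8, 26.4, 23.8, 24.0 and 25.3 CPM, and Control male 6 gave 17.3 CPM. Female controls 1 to 7 gave 25.5 and 23.9 CPM, and the other female controls gave 19.6, 20.3, 20.4 and 18.3 CPM. In both sexes controls 1 to 7 were high and controls 8 to 12 low, with no overlap. The share of all genes that separate this way was not counted, so the separation is not shown to be particular to Ppard. In bulk tissue, fewer cells that express a gene and less of its RNA per cell cannot be told apart.

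The 2 sets of controls differed in Ppard by the test. The split was itself seen in earlier results of these data. The comparison therefore describes how far the receptors moved with it and is not independent support for it. Controls 1 to 7 averaged 24.7 ± 1.06 CPM (SD, n = 7) and controls 8 to 12 averaged 19.2 ± 1.34 CPM (SD, n = 5). With sex as a covariate, controls 1 to 7 were 1.32-fold higher (95% interval 1.19 to 1.46), a log2 difference of 0.40 ± 0.07 with edgeR adjusted p = 0.00195. Of the 3 receptors, 1 was called between the sets, where 15% of all tested genes were. Ppara differed by 0.26 ± 0.21 (edgeR adjusted p = 0.473) and Pparg by 0.04 ± 0.31 (edgeR adjusted p = 0.960). The Ppard call held when any 1 of the 12 controls was left out, with log2 differences from 0.32 to 0.45.

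Most exposed libraries lay below controls 1 to 7 in Ppard, and after normalisation the males lay above the 1 male control outside them. BFR males ran from 17.6 through 18.4 to 20.2 CPM (mean 18.6 ± 1.03), OPFR males from 17.4 through 21.2 to 23.7 CPM (mean 20.8 ± 2.62) and FM550 males from 17.4 through 19.9 to 21.1 CPM (mean 19.5 ± 1.70; SD, n = 6 each). All 18 exposed males were above Control male 6 and below the 5 male controls numbered 1 to 7. This did not hold with plain library totals. FM550 male 3 (16.5 CPM) and OPFR male 6 (17.4 CPM) then lay below Control male 6 (17.6 CPM). OPFR male 5 (24.4 CPM) lay above Control male 3 (23.7 CPM). BFR females ran from 18.5 through 20.2 to 23.1 CPM (mean 20.4 ± 1.51, SD, n = 6). OPFR females gave 20.3, 22.9, 20.8, 22.0 and 22.8 CPM (mean 21.8 ± 1.16, SD, n = 5), and FM550 females ran from 17.2 through 18.8 to 25.5 CPM (mean 19.7 ± 3.09, SD, n = 6). Over both sexes the 35 exposed libraries averaged 20.1 ± 2.11 CPM (SD), and 34 of them lay below the lowest of controls 1 to 7. The exception was FM550 female 3 at 25.5 CPM. With plain library totals, OPFR males 4 and 5 and OPFR females 4 and 5 lay above the lowest of those controls too. How many other genes show such a pattern was not counted.

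**Figure D3:**
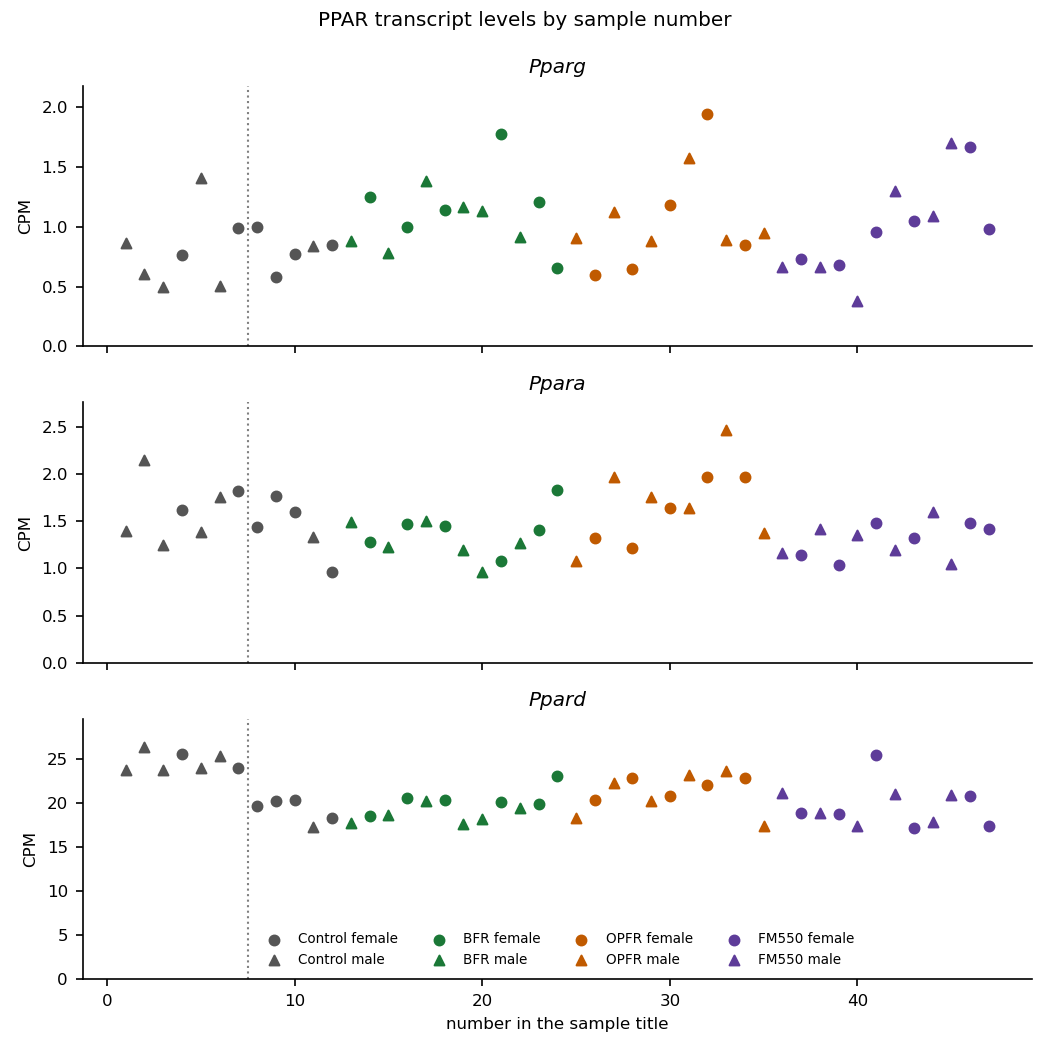
CPM of each receptor (vertical axes, linear) against the number in the library's title (horizontal axis), coloured by treatment. After normalisation, Ppard is at 23.8 CPM or above in libraries 1 to 7 and below that in every later library but 1. With plain library totals, OPFR males 4 and 5 and OPFR females 4 and 5 also lay above the lowest of libraries 1 to 7. Pparg and Ppara show no such step, and how many other genes do was not counted.

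Against the pooled controls Ppard fell in BFR and FM550 males. The log2 fold change was -0.33 ± 0.09 in BFR males, a fold of 0.795 (95% interval 0.701 to 0.903, edgeR adjusted p = 0.0158). In FM550 males it was -0.26 ± 0.09 (edgeR adjusted p = 0.0482) and in OPFR males -0.17 ± 0.09 (edgeR adjusted p = 0.221). In females it was -0.06 ± 0.09 in BFR, 0.03 ± 0.09 in OPFR and -0.11 ± 0.09 in FM550 (edgeR adjusted p of 0.860, 0.899 and 0.999). With both sexes averaged, Ppard fell by 0.20 ± 0.06 in BFR (edgeR adjusted p = 0.0359), and the values were -0.07 ± 0.07 in OPFR (edgeR adjusted p = 0.476) and -0.19 ± 0.06 in FM550 (edgeR adjusted p = 0.0581). Leaving out 1 library at a time, the call in BFR males held in all 12 fits, that in FM550 males was lost in 9 of 12 and that in BFR over both sexes in 12 of 24. Without Control male 6, OPFR males were called at -0.25 (edgeR adjusted p = 0.0379).

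None of these Ppard calls held once controls 1 to 7 were set apart. With a term for them, the log2 fold change was 0.014 ± 0.11 in BFR males, 0.17 ± 0.11 in OPFR males and 0.080 ± 0.11 in FM550 males. For each receptor the term is 1 shift shared by both sexes. The male values under it therefore also depend on the female controls, with Control male 6 the only male outside controls 1 to 7. With controls 1 to 7 left out, which leaves 1 control male, the values were 0.11 ± 0.15, 0.26 ± 0.15 and 0.17 ± 0.15. Averaged over the sexes, the term gave 0.047 ± 0.07 in BFR, 0.17 ± 0.08 in OPFR and 0.055 ± 0.08 in FM550. Every one of these 9 values was above 0. The lowest edgeR adjusted p among them was that of OPFR with both sexes averaged (adjusted p = 0.404, unadjusted p = 0.0291).

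**Figure D4:**
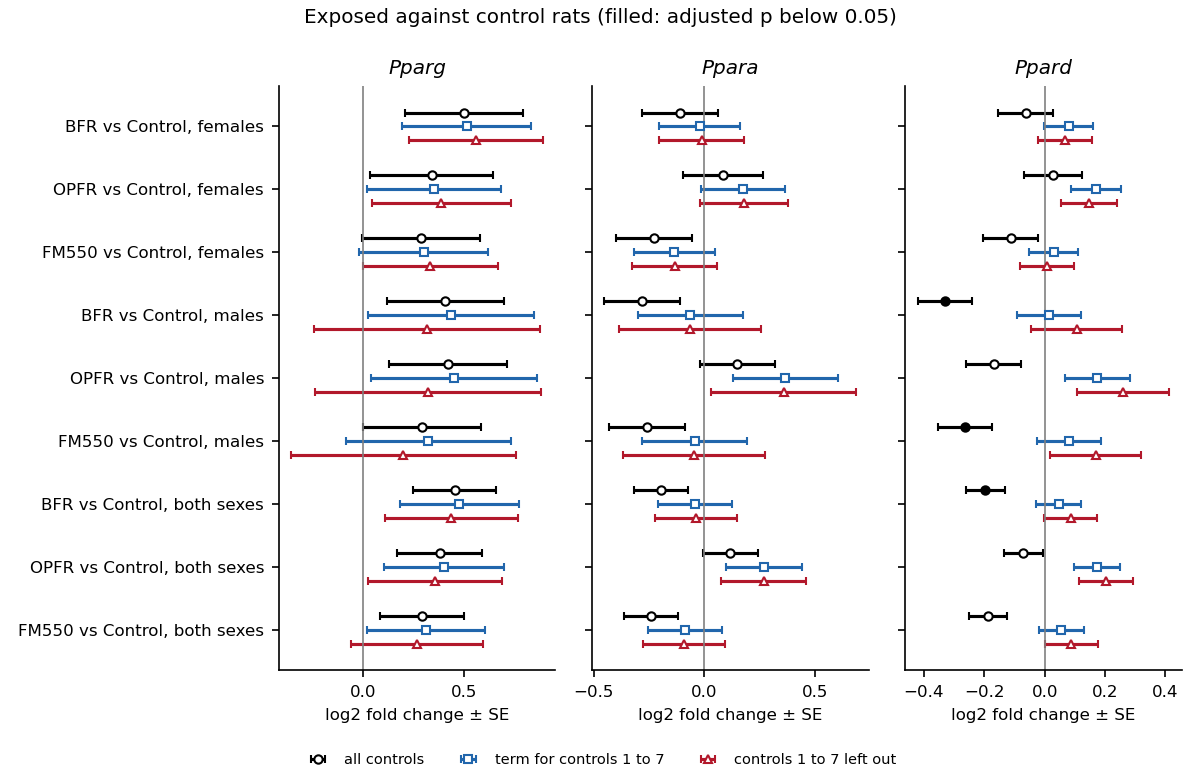
Log2 fold changes of each receptor against control (horizontal axis) for each exposure and sex, with all controls, with a term for controls 1 to 7 and with those controls left out. Ppard in BFR males moves from -0.33 with all controls to 0.014 and 0.11 under the other fits, and Pparg keeps its side of 0 for BFR with both sexes averaged at 0.46, 0.48 and 0.44.

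The calls among the receptors are given beside the share of all genes called. In females 0 of 3 receptors were called against control in BFR, OPFR or FM550, where 0%, 3.1% and 0% of the 17135 tested genes were, and 0 had an unadjusted p below 0.05 by edgeR or DESeq2. In males 1 of 3, Ppard, was called for BFR (9.95% of genes), 0 of 3 for OPFR (12.5%) and 1 of 3, Ppard, for FM550 (11.8%). With both sexes averaged, 1 of 3, Ppard, was called for BFR (12.4% of genes), 0 of 3 for OPFR (19.3%) and 0 of 3 for FM550 (8.13%). In OPFR, edgeR and DESeq2 gave no receptor an unadjusted p below 0.05 in males or with both sexes averaged. For FM550 with both sexes averaged 1 receptor was below 0.05 unadjusted, and DESeq2 called Ppard (adjusted p = 0.0402).

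With controls 1 to 7 given a term, 0 of 3 receptors were called in any exposure or sex. Of all genes, 1.42% were then called in OPFR females, 0.525% in OPFR with both sexes averaged and 0% in the other 7 comparisons. With those controls left out, 0 of 3 were called again, beside 0.382% of 18048 genes for OPFR females, 0.0222% for OPFR with both sexes averaged and 0% for the rest. By edgeR, Ppard for OPFR with both sexes averaged had an unadjusted p below 0.05 under both fits (0.0291 and 0.0280).

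Ppard did not pass between exposures either. Averaged over the sexes, the log2 difference was 0.13 ± 0.07 for OPFR against BFR (edgeR adjusted p = 0.252), 0.01 ± 0.06 for FM550 against BFR (edgeR adjusted p = 0.984) and -0.12 ± 0.07 for FM550 against OPFR (edgeR adjusted p = 0.336). The 95% interval of OPFR against BFR ran from a fold of 0.996 to 1.20, and that of FM550 against BFR from 0.920 to 1.10.

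Over the 9 comparisons between exposures, 0 of the 3 receptors were called. Of all genes, OPFR against BFR called 1.25% in females, 0% in males and 4.75% with both sexes averaged. FM550 against BFR called 0%, 0.00584% and 0.204%, and FM550 against OPFR called 0.747%, 0% and 0.00584%, in the same order. By edgeR and by DESeq2, Ppara had an unadjusted p below 0.05 in 4 of the 9, and Pparg and Ppard in 0. The 4 were OPFR against BFR and FM550 against OPFR, in males and with both sexes averaged. With OPFR libraries 31 to 35 left out, edgeR gave no receptor an unadjusted p below 0.05 in any of the 4. With OPFR females 4 and 5 left out, it gave none in those averaged over the sexes.

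No receptor differed between the sexes by the test. Averaged over treatments, females differed from males by a log2 of 0.07 ± 0.15 for Pparg, 0.02 ± 0.09 for Ppara and 0.02 ± 0.05 for Ppard (edgeR adjusted p of 0.999 each). None of the 3 was called, beside 0.128% of all genes, and none had an unadjusted p below 0.05. For the difference of an exposure's effect between sexes, 0 of 3 receptors and 0% of genes were called for BFR, OPFR and FM550 alike. The lowest unadjusted p was that of Ppard in BFR, where the male effect minus the female effect was -0.27 ± 0.13 (unadjusted p of 0.0426 and adjusted p of 0.956 by edgeR). With a term for controls 1 to 7, the male and female values for BFR were 0.014 and 0.079. The call in BFR males and its absence in BFR females are therefore not shown to differ.

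Most neighbours in the order of the group means lay close together. For Pparg, control males were lowest at 0.786 CPM and BFR females highest at 1.17 CPM. For Ppara, BFR males were lowest at 1.27 CPM and OPFR males highest at 1.71 CPM. For Ppard, BFR males were lowest at 18.6 CPM and control males highest at 23.4 CPM. Each group differed from its neighbour in the order by less than the smaller of their SDs, except at the top of the Ppard order, where control males exceeded OPFR females by 1.67 CPM against an SD of 1.16.

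Across libraries, Ppara and Ppard varied together more than either did with Pparg. Over the 40 libraries outside controls 1 to 7, Pearson's r of log2 CPM was 0.50 for Ppara with Ppard (Spearman's rho 0.45), 0.03 for Pparg with Ppara and 0.17 for Pparg with Ppard. Without OPFR females 4 and 5 the first was 0.45 over 38 libraries. The values of 1 library share its depth and normalisation, and the libraries come from different groups, so these are descriptions. Among tested genes whose mean log2 CPM was 1 or more, the patterns most like Pparg over the 40 libraries were those of ENSRNOG00000002950 (r = 0.77) and ENSRNOG00000020657 (r = 0.75). Most like Ppara were ENSRNOG00000019424 (r = 0.81) and ENSRNOG00000021108 (r = 0.79), and most like Ppard were ENSRNOG00000029028 (r = 0.81) and ENSRNOG00000024568 (r = 0.79).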

How the data were processed

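The authors deposited whole-number read counts per Ensembl gene ID in 1 table, with no normalization. Poly(A) selection and directional libraries are per the labels' protocols. FastQC, featureCounts and DESeq2 are named in the submitters' processing notes, with no version or role. The sources used here do not give the aligner, genome build or strand setting. Reads shared with overlapping genes were taken as counted. Columns were matched to samples by the number in the title, and no 2 libraries of a group were copies.

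Genes were kept by filterByExpr (minimum count 10, minimum total 15), leaving 17135 of 27198 IDs with a read. edgeR 4.0.16 in R 4.3.3 fitted 1 two-sided quasi-likelihood model to all 47 libraries with a mean per treatment and sex after TMM scaling (factors 0.950 to 1.10). Controls 1 to 7 and 8 to 12 were compared in a fit of the 12 controls with sex as a covariate. Calls required a p below 0.05 after Benjamini-Hochberg adjustment over all genes. CPM and log2 fold changes were computed here, the latter with a standard error from the F statistic. The procedure was tested on simulated data.

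The receptors and gene lists were chosen with earlier results of these data known. Named genes are the 3 receptors and, for each, the 2 tested genes with the highest Pearson correlation of log2 CPM (prior count 2). Alternatives were DESeq2 1.42.0, limma 3.58.1 voom with sample weights, RLE size factors, no low-count filter, only the groups compared, a term for controls 1 to 7, leaving out those controls, OPFR females 4 and 5, both sets, or OPFR libraries 31 to 35, and leaving out each library in turn.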

Additional observations from a re-analysis of the deposited data

Results flagged for a closer look

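In 3 of 24 sets of a receptor's CPM in a group, the highest or lowest library lay farther from its nearest neighbour than Dixon's 95% critical value allows, where chance marks about 1 in 20. Ppard in Control male 6 was 17.3 CPM, the lowest of its group, whose other 5 libraries averaged 24.6 CPM. It is the only male outside controls 1 to 7, and female controls 3 to 6 averaged 19.6 CPM. Pparg in OPFR male 4 was 1.57 CPM, where the other 5 males averaged 0.948 CPM. Pparg in FM550 female 5 was 1.67 CPM, where the other 5 females averaged 0.878 CPM.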

How the results depend on the processing

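Of 1899 values for 69 results under 10 other settings and 47 single leave-outs, 1817 kept their direction and side of the threshold. This counts 87 values not called under either fit that changed sign by less than 1 standard error. All 24 group means moved by less than 1 SD with plain library totals. Values below are log2 differences.

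For Ppard, DESeq2 (-0.19), voom (-0.21) and leaving out OPFR libraries 31 to 35 (-0.19) brought FM550 with both sexes averaged to a call, and voom did so for OPFR males (-0.26). FM550 males lost the call with no filter (-0.27) or only the groups compared (-0.25), and BFR with both sexes averaged lost it with no filter (-0.20). For Pparg, voom called BFR with both sexes averaged (0.59).

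Ppard changed sign when controls 1 to 7 were set apart, whose mean was 24.7 CPM against 19.2 CPM in controls 8 to 12. With a term for them, BFR, OPFR and FM550 males were 0.014, 0.17 and 0.080, both sexes 0.047, 0.17 and 0.055, BFR and FM550 females 0.079 and 0.030, and the OPFR and FM550 sex interactions 0.0049 and 0.051. With them left out, males were 0.11, 0.26 and 0.17, both sexes 0.087, 0.20 and 0.089, BFR and FM550 females 0.066 and 0.0084, and the BFR, OPFR and FM550 interactions 0.041, 0.11 and 0.16. Leaving out OPFR females 4 and 5 as well gave males 0.11, 0.26 and 0.17, both sexes 0.087, 0.18 and 0.088, females 0.067 and 0.0088, and interactions 0.040, 0.15 and 0.16.

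Without OPFR females 4 and 5, OPFR against control in females was -0.029 for Pparg and -0.14 for Ppara, OPFR against BFR in females was -0.035 for Ppara (-0.045 without controls 1 to 7 as well), and FM550 against OPFR in females was 0.32 for Pparg (0.32). Without OPFR libraries 31 to 35 these were -0.036, -0.15, -0.042 and 0.32. In that setting Ppara for OPFR against control was -0.055 and Pparg for FM550 against OPFR was 0.16, both with sexes averaged.

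Leaving out 1 library at a time, Ppard in BFR males stayed called (-0.41 to -0.29). FM550 males ran from -0.35 to -0.23, with 9 of 12 leave-outs not called (adjusted p 0.00395 to 0.117). BFR with both sexes averaged ran from -0.23 to -0.17, 12 of 24 not called, and FM550 from -0.23 to -0.16, 6 of 24 called. OPFR males ran from -0.25 to -0.12, called without Control male 6 (adjusted p = 0.0379). Pparg for OPFR against control in females ran from -0.015 to 0.49 and for FM550 against OPFR in females from -0.26 to 0.30, both changing sign without OPFR female 4. No paired analysis was possible because the titles number the samples once over the whole series, so no number is shared by the groups compared. Counting error was 14.1% for Pparg and 11.2% for Ppara, below their within-group coefficients of variation of 36.5% and 20.8%.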
